A study of Mus musculus with 6 samples.

Results

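The 7 genes described here, Gabra2, Gabra3, Gabra4, Gabra5, Gabrb1, Gabrb2 and Gabrd, encode the alpha2, alpha3, alpha4, alpha5, beta1, beta2 and delta subunits of the GABA-A receptor. They were chosen by name, and all 7 had a value in every one of the 6 libraries, out of 15441 genes with a value in 1 or more libraries and 11750 with a value in all 6.

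GABA-A receptors are chloride channels built of several subunits and opened by GABA, the main inhibitory transmitter of the cortex. The alpha subunit largely decides where a receptor sits. Receptors with alpha2 or alpha3, usually with a gamma subunit, gather at synapses and carry brief (phasic) inhibition, while receptors with alpha4 and delta, or with alpha5, lie mostly outside synapses, respond to ambient GABA and carry a lasting (tonic) inhibition. Beta subunits bind GABA together with alpha and are part of both kinds. Tonic inhibition in the cortex around a stroke is known as a brake on the recovery of movement, which is why the balance between both kinds is of interest after ischemia.

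RNA-seq was carried out on the whole ipsilateral cortex of male C57/BL6J mice of 6 to 8 weeks after photothrombosis or a sham operation. In photothrombosis, Rose Bengal and 15 min of illumination clot the vessels of the cortex under the skull. Sham mice were operated on in parallel but were not illuminated. The groups were sham, taken at day 7 after the operation, and day 1, day 3, day 7, day 14 and day 28 post-stroke. For each group the RNA of 3 mice was pooled into 1 strand-specific, poly(A)-selected library. There were no replicates, so no value below has a replicate error, and no difference was tested. The sham group was taken at 1 time only, so age and time after the operation differed between sham and 4 of the 5 groups.

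The deposited values are FPKM (fragments scaled by transcript length and by the library's mapped fragments) of each transcript start, transcript end and splicing event. The gene value used here is the largest of the summed starts, the summed ends and any single event in a library. A log2 ratio to sham was taken after adding 0.1 FPKM to both values, and a log2 ratio of 1 or more in size was set as the fold mark. The libraries listed 83501 to 99187 events and 13263 to 13987 genes, with the fewest of each at day 14. Across genes, the log2 ratio at day 14 had a Spearman rank correlation of -0.413 with the length of the longest annotated transcript (the range at the other days was -0.254 to 0.00325), so lengths and length-corrected ratios are given below where they matter. The median log2 ratio of all genes was 0.01 at day 1, 0.03 at day 3, day 7 and day 28, and 0.10 at day 14. The files give no read counts, so the depth behind each value is unknown. All 10 cortical layer markers looked up had a value, and Rbfox3, a nuclear protein of neurons, was at 89.9 FPKM in sham.

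The exons in which members changed form between libraries are shown first, because the gene values below hide them. In Gabra2 an exon of 221 bases on chromosome 5 (71014416 to 71014636 of GRCm38, minus strand) was listed in a long form and in a short form of 160 bases. The long form is coding throughout in a protein-coding transcript of GENCODE M21. The short form is annotated only in a transcript of the nonsense-mediated decay class, in which 6 of its bases are coding. In Gabra4 an exon of 119 bases was also listed in a form of 197 bases (chromosome 5, 71657093 to 71657289, minus strand), and both forms are coding in protein-coding transcripts. In Gabrb2 an exon of 114 bases (chromosome 11, 42602115 to 42602228, plus strand) that lengthens the beta2 protein is coding. Capitals mark the 61 bases that the short form of Gabra2 lacks, the 78 bases that the long form of Gabra4 adds, and the whole Gabrb2 exon. The 61 bases are not a multiple of 3, so the forms of Gabra2 differ in reading frame, while 78 and 114 are multiples of 3.
Gabra2 exon: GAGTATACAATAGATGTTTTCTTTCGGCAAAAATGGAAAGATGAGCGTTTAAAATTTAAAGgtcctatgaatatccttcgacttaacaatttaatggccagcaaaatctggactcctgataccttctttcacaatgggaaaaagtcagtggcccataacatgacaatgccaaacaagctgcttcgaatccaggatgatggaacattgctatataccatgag
Gabra4 exon: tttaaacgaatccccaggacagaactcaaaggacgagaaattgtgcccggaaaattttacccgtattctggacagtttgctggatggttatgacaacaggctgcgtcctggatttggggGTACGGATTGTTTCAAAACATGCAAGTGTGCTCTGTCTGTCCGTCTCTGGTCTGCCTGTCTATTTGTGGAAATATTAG
Gabrb2 exon: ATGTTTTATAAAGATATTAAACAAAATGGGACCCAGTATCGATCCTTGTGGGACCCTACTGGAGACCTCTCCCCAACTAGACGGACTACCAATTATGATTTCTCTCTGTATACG

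The 250 bases before the transcript start are shown for Gabra2 and Gabra5, the members that were above sham at every day. They come from RefSeq (GRCm38.p6), whose start coincided with a start listed in the files for 4 members, Gabra2, Gabra4, Gabra5 and Gabrb1. The Gabra2 window (chromosome 5, 71095850 to 71096099, minus strand) lies before the start that carried most of its signal. The Gabra5 window (chromosome 7, 57510060 to 57510309, minus strand) lies before the upstream of its starts, which is described with its values below. Capitals mark matches, on either strand, to motifs of which each is given with the share of 32851 RefSeq windows of this length that hold it. They were the CRE, TGACGTCA, in 1.55% of windows, the AP-1 site, TGACTCA, in 4.46%, the Egr sites GCGTGGGCG, in 0.536%, and GCGGGGGCG, in 2.57%, the GC box, GGGCGG, in 32.7%, the TATA box, TATAAA, in 12.4%, and the NRF1 site, GCGCATGCG, in 1.45%.
Gabra2 promoter: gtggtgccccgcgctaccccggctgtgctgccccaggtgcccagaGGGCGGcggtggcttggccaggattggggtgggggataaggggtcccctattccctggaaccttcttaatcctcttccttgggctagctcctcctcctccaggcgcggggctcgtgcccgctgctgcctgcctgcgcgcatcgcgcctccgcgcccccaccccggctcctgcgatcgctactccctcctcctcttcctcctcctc
Gabra5 promoter: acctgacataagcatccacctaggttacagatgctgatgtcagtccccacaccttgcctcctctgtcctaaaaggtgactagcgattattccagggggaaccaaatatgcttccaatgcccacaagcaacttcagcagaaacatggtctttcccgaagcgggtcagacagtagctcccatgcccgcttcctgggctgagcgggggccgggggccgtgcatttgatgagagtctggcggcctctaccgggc

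The Gabra2 window held 1 GC box and the Gabra5 window held none of the motifs. The G and C content was 70.0% for Gabra2 and 56.4% for Gabra5, against a median of 52.4%. These matches describe the letters of the windows only.

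None of the 7 subunits passed the fold mark at any day. At day 1, 0 of 7 had a log2 ratio of 1 or more and 0 of -1 or less, beside 5.11% and 4.48% of the 11790 genes compared (those with at least 1 FPKM in sham or at that day). At day 3 the same counts were 0 and 0 beside 8.54% and 2.53% of 12052 genes. At day 7 they were 0 and 0 beside 8.53% and 2.12%, at day 14 0 and 0 beside 8.97% and 6.92%, and at day 28 0 and 0 beside 3.68% and 2.79%. These counts do not set the members apart from the background. At a log2 ratio of 0.5 or more in size, 2, 2, 1, 3 and 0 of 7 members passed on days 1, 3, 7, 14 and 28, beside 27.6%, 27.3%, 25.6%, 38.2% and 19.5% of the genes compared. Within the phasic and the tonic class, members lay on opposite sides of sham, as described for each class below. Both beta subunits were below sham. In a bulk sample, fewer cells of a type and less RNA per cell cannot be told apart.

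**Figure D1:**
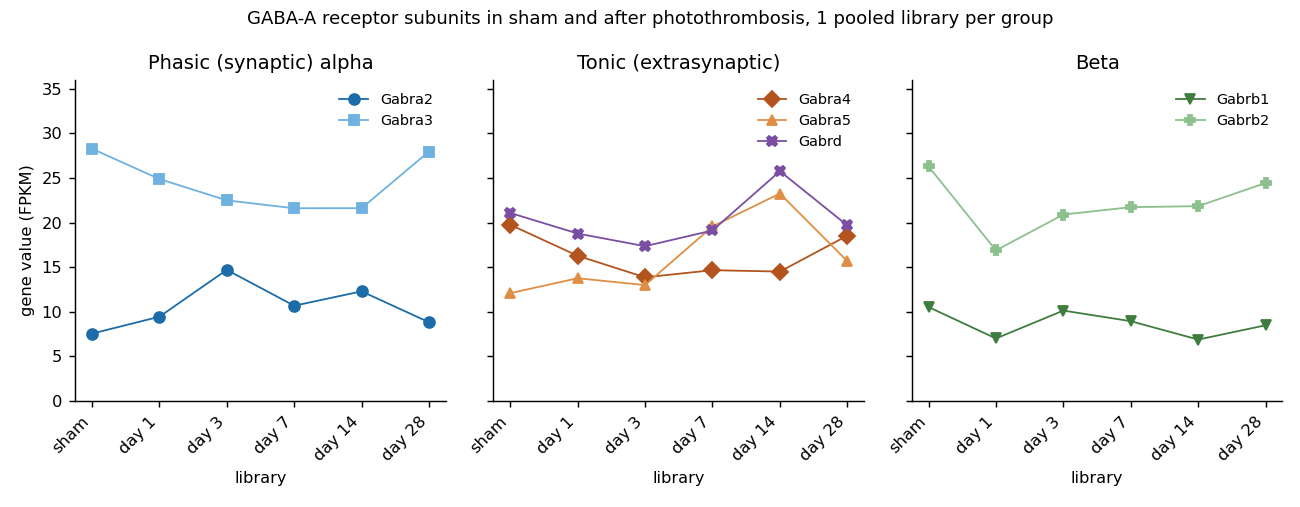
Gene value (FPKM, y axis) of the 7 subunits in the 6 libraries (x axis, in order of time and not to scale), 1 point per pooled library, in panels for phasic alpha, tonic and beta subunits. Gabra2 and Gabra5 were lowest in sham, at 7.56 and 12.1 FPKM, while Gabra3, Gabra4, Gabrb1 and Gabrb2 were highest in sham.

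Of the phasic alpha subunits, alpha2 was above sham and alpha3 below it at all 5 days. Gabra2 (ENSMUSG00000000560, chromosome 5, 70957597 to 71095849 of GRCm38, minus strand) encodes alpha2, the subunit of many synapses on the axon initial segment and the soma of pyramidal cells. Its gene value was 7.56 FPKM in sham and 9.45, 14.7, 10.7, 12.3 and 8.83 on days 1, 3, 7, 14 and 28. Sham was the lowest library, day 3 the highest, and day 28 the nearest to sham. The log2 ratio to sham was 0.32, 0.95, 0.49, 0.69 and 0.22 on days 1, 3, 7, 14 and 28. The day 3 ratio was the highest of any member at any day and lay at percentile 90.9 of the genes compared that day.

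The 2 forms of the Gabra2 exon shown above did not keep a fixed proportion. The long, coding form was at 4.73 FPKM in sham and 6.94, 3.82, 8.10, 4.99 and 7.13 on days 1, 3, 7, 14 and 28. The short form was at 1.87 FPKM in sham and 10.2, 0.680 and 0.452 on days 3, 7 and 28, and was not listed at day 1 and day 14. The short form was therefore 28.3% of both forms in sham and 72.8%, 7.74% and 5.95% on days 3, 7 and 28. With the long form alone, the log2 ratio of Gabra2 to sham was 0.54, -0.30, 0.76, 0.07 and 0.58 on days 1, 3, 7, 14 and 28. Day 3, the highest library by gene value, was the lowest by the form annotated as coding. At day 14 the forms summed to 4.99 FPKM, of a gene value of 12.3. Forms that leave out this exon together with neighbouring exons were at 2.81 and 2.79 FPKM (71012701 to 71014636) and 1.34 FPKM (71006107 to 71014636) at day 14, and forms without it were at 1.10 FPKM or less each in the other 5 libraries.

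Gabra2 also used several starts. The start at 71095849, whose promoter is shown above, carried 87.4% of the summed starts in sham and 94.5%, 95.5%, 57.8%, 97.0% and 85.9% on days 1, 3, 7, 14 and 28. At day 7 a start 649 bases further into the gene, in a noncoding first exon, was listed at 2.61 FPKM, against 0.0612 at day 3 and no listing in the other libraries. Day 7 was the library in which the main start had its smallest share.

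Gabra3 (ENSMUSG00000031343, chromosome X, 72432681 to 72656848, minus strand) encodes alpha3, a synaptic subunit that is abundant early in development and remains in parts of the adult cortex. The gene value was 28.3 FPKM in sham and 24.9, 22.5, 21.6, 21.6 and 28.0 on days 1, 3, 7, 14 and 28. The 4 libraries from day 1 to day 14 lay below both sham and day 28. The log2 ratio was -0.18, -0.33, -0.39, -0.39 and -0.02 on days 1, 3, 7, 14 and 28. Gabra3 had 1 listed start in all 6 libraries. An exon of 78 bases that matches no annotated exon (72644438 to 72644515) was kept in 9.83% of the signal at day 7 and was not listed as kept in the other 5 libraries.

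Within the phasic pair the ratio of Gabra2 to Gabra3 in FPKM was 0.267 in sham and 0.380, 0.654, 0.495, 0.569 and 0.316 on days 1, 3, 7, 14 and 28. Both values contributed, a higher alpha2 and a lower alpha3. The sum of the pair stayed between 32.3 and 37.2 FPKM, with 35.8 in sham, so the pair changed in make-up more than in amount.

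The tonic subunits also went in different directions, alpha5 above sham at every day, alpha4 below it at every day and delta on both sides. Gabra4 (ENSMUSG00000029211, chromosome 5, 71569749 to 71658308, minus strand) encodes alpha4, which pairs with delta in extrasynaptic receptors of the forebrain. Its gene value was 19.7 FPKM in sham and 16.3, 13.9, 14.7, 14.5 and 18.5 on days 1, 3, 7, 14 and 28. As with Gabra3, the values from day 1 to day 14 lay below both sham and day 28. Its log2 ratio was -0.28, -0.51, -0.43, -0.44 and -0.09 at day 1, day 3, day 7, day 14 and day 28. The day 3 value lay at percentile 8.60 of the genes compared. The long form of the exon shown above was at 15.6% of both forms at day 14, 1.65% in sham, 1.70% at day 7 and 0.0796% at day 28, and was not listed at day 1 and day 3. Gabra4 and Gabrb1 lie head to head and overlap by 196 bases on opposite strands. The libraries kept the strand, and the only start listed for Gabra4 was its annotated start.

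Gabrd (ENSMUSG00000029054, chromosome 4, 155384980 to 155398112, minus strand) encodes delta, the subunit that gives extrasynaptic receptors their high affinity for GABA. The gene value was 21.1 FPKM in sham and 18.8, 17.4, 19.1, 25.8 and 19.7 on days 1, 3, 7, 14 and 28. Day 14 was the only library above sham. The log2 ratio was -0.17, -0.28, -0.14, 0.29 and -0.10 on days 1, 3, 7, 14 and 28. With the length trend subtracted, the day 14 ratio was 0.10, and the longest Gabrd transcript has 2707 bases against a median of 3410 for the genes compared at day 14. A run of introns within the coding region (155386146 to 155387154) was kept in 10.5% of the signal at day 3 and at day 14 and in 0.0547% or less in the other 4 libraries. The spliced form of that region was at 20.9 FPKM in sham, 15.5 at day 3 and 23.1 at day 14, so the direction at both days was the same for the spliced form alone.

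Gabra5 (ENSMUSG00000055078, chromosome 7, 57407672 to 57510059, minus strand) encodes alpha5, the extrasynaptic subunit best known from the hippocampus and from deep cortical layers. Its gene value was 12.1 FPKM in sham and 13.8, 13.0, 19.6, 23.3 and 15.7 on days 1, 3, 7, 14 and 28. Sham was the lowest library, and day 7 and day 14 stood above the other 4. Its log2 ratio was 0.19, 0.10, 0.69, 0.94 and 0.37 on days 1, 3, 7, 14 and 28. At day 14 it lay at percentile 90.1 of the genes compared, and with the length trend subtracted it was 0.72 (longest transcript 2671 bases). By summed starts alone it was 1.13, past the fold mark.

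The higher Gabra5 values at day 7 and day 14 came with a larger share of a start that was also listed in the other 4 libraries. Gabra5 has 2 main starts 688 bases apart, at 57510059 (upstream, with the promoter shown above) and at 57509371 (downstream), both before the first coding base at 57508064, so the choice of start changes noncoding sequence only. The downstream start was at 7.72 FPKM in sham and 11.97, 11.1, 5.56, 7.88 and 7.72 on days 1, 3, 7, 14 and 28. The upstream start was at 2.84 FPKM in sham and 1.80, 0.970, 14.0, 15.4 and 2.06 on days 1, 3, 7, 14 and 28. The upstream share of both was 26.9% in sham and 13.1%, 8.04%, 71.6%, 66.1% and 21.1% on days 1, 3, 7, 14 and 28, so day 7 and day 14 stood apart from the other 4 libraries.

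At the upstream start the first exon was listed in 2 lengths, a short form of 56 bases that is annotated and a long form of 320 bases that matches no annotated exon. The long form was at 14.0 FPKM at day 7 and 12.5 at day 14, and between 0.0470 and 0.0719 FPKM in the other 4 libraries. The short form was at 2.77 FPKM in sham and 1.74, 0.923, 2.92 and 2.00 on days 1, 3, 14 and 28, and was not listed at day 7. Without the long form, the upstream and downstream starts summed to 5.56 FPKM at day 7 and 10.8 at day 14, against 10.5 in sham. The excess of the summed starts over sham at day 7 and nearly all of it at day 14 was thus in the long first exon.

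**Figure D2:**
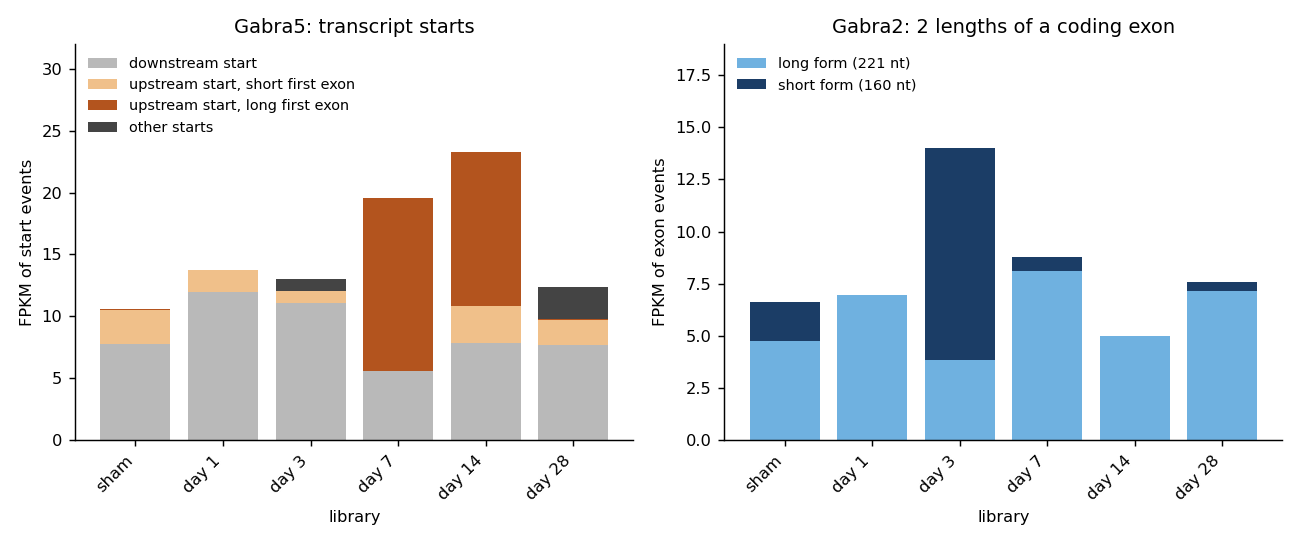
Left, FPKM (y axis) of the Gabra5 transcript starts stacked by start and first exon in the 6 libraries (x axis), and right, FPKM of the long (221 bases) and short (160 bases) forms of the Gabra2 exon. The long first exon of the upstream Gabra5 start was at 14.0 FPKM at day 7 and 12.5 at day 14, and the short Gabra2 form was at 10.2 FPKM at day 3.

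Alpha5 is a marker of hippocampal and some other neurons, so the region markers are given beside it. Of 8 hippocampal markers, 7 had a value. Their summed level was 36.2 FPKM in sham and 56.0, 47.3, 44.3, 56.3 and 46.5 on days 1, 3, 7, 14 and 28. The sums at day 1 and day 14 were close, while the Gabra5 log2 ratio was 0.19 at day 1 and 0.94 at day 14. Of the 7, 4 were listed in both sham and day 14 with at least 1 FPKM in either. Spink8 rose from 1.55 FPKM to 6.08 (log2 ratio 1.91) and also passed the fold mark at day 3 and day 28. C1ql2, Wfs1 and Fibcd1 had log2 ratios of 0.88, 0.40 and 0.23, for a median of 0.64 over the 4. Dsp, below 1 FPKM in both libraries, went the other way, from 0.781 FPKM in sham to 0.551 at day 14. Prox1, which defines dentate granule cells, was not listed in sham and at day 28 and was at 0.765, 4.24, 1.21 and 0.427 FPKM on days 1, 3, 7 and 14, and Neurod6 was not listed in any library. Gabra5, Spink8, C1ql2, Wfs1 and Fibcd1 were thus above sham together at day 14, and Dsp was below it. Of 8 striatal markers, 6 had a value, with a median log2 ratio of 0.61 at day 14 and between -0.07 and 0.34 at the other days. The part of these markers in the Gabra5 values was not tested.

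Within the 4 alpha genes described here, alpha5 was 17.9% of the summed FPKM in sham and 21.4%, 20.3%, 29.4%, 32.4% and 22.1% on days 1, 3, 7, 14 and 28. Alpha4 was 29.2% in sham and 20.2% at day 14. The ratio of Gabra5 to Gabra4 was 0.612 in sham and 0.846, 0.937, 1.33, 1.60 and 0.846 on days 1, 3, 7, 14 and 28. Alpha5 was above alpha4 at day 7 and day 14 and below it in the other 4 libraries. The ratio of Gabrd to its partner Gabra4 went from 1.07 in sham to 1.78 at day 14 and was 1.06 at day 28.

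Both beta subunits were below sham at all 5 days. Gabrb1 (ENSMUSG00000029212, chromosome 5, 71658113 to 72149037, plus strand) encodes beta1. The gene value was 10.5 FPKM in sham and 7.01, 10.1, 8.95, 6.89 and 8.49 on days 1, 3, 7, 14 and 28. Day 1 and day 14 were the lowest libraries, with log2 ratios of -0.58 and -0.60, and the ratios at day 3, day 7 and day 28 were -0.05, -0.23 and -0.31. Its longest transcript, of 13737 bases, is the longest of the members, and with the length trend subtracted the ratios at day 1 and day 14 were -0.28 and -0.24. A distal start inside the overlap with Gabra4 was at 0.457 FPKM in sham, 0.556 at day 1 and between 0.0786 and 0.125 from day 3 to day 28.

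Gabrb2 (ENSMUSG00000007653, chromosome 11, 42419757 to 42629028, plus strand) encodes beta2, a beta subunit that is abundant in the adult cortex. Its gene value was 26.3 FPKM in sham and 16.9, 20.9, 21.7, 21.8 and 24.4 on days 1, 3, 7, 14 and 28. It was lowest at day 1 and nearer to sham at each later library. The log2 ratio was -0.64, -0.33, -0.27, -0.27 and -0.11 on days 1, 3, 7, 14 and 28, and the day 1 ratio was the lowest of any member at any day. At day 14 the main start, which was at 16.7 to 26.1 FPKM in the other 5 libraries, was not listed although the transcript end was at 21.8 FPKM. By summed starts alone, the day 14 ratio would be -7.75. The exon of 114 bases shown above was kept in 0.699% of the signal in sham, 0.788% at day 3 and 0.723% at day 7, and was not listed as kept at day 1, day 14 and day 28. The short beta2 form was thus nearly all of the signal in every library.

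**Figure D3:**
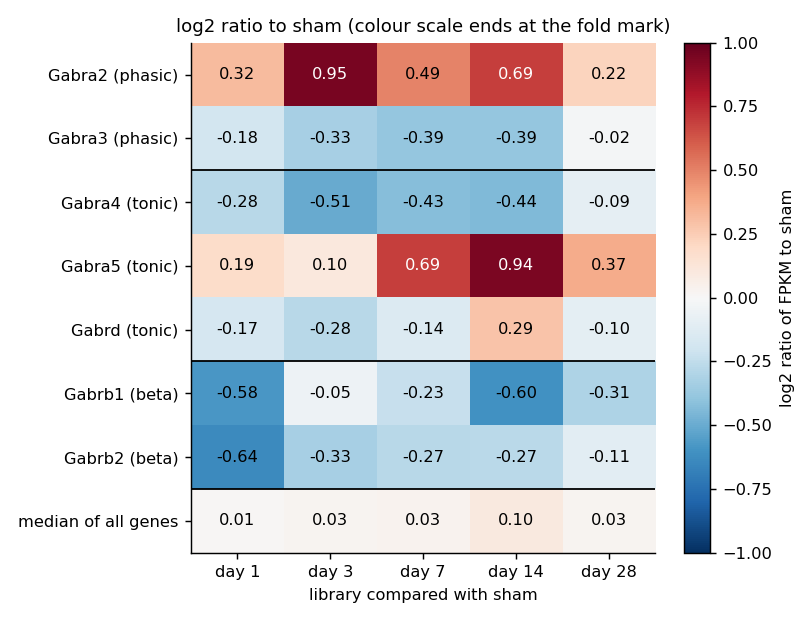
Log2 ratio to sham (number and colour in each cell) of the 7 subunits (y axis, grouped as phasic, tonic and beta) at the 5 days post-stroke (x axis), with the median of all genes compared in the bottom line. No cell reaches the fold mark of 1, and the extremes are Gabra2 at day 3 (0.95), Gabra5 at day 14 (0.94) and Gabrb2 at day 1 (-0.64).

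The phasic and tonic subunits were then set against each other. The mean log2 ratio of the phasic alpha subunits was 0.07, 0.31, 0.05, 0.15 and 0.10 on days 1, 3, 7, 14 and 28. The mean of the tonic subunits was -0.09, -0.23, 0.04, 0.26 and 0.06 at the same days. Tonic minus phasic was therefore -0.15, -0.54, -0.01, 0.11 and -0.04 on days 1, 3, 7, 14 and 28. Members within a set lay further apart than the set means did. At day 14, alpha5 and alpha4 differed by 1.38 on the log2 scale within the tonic set, and at day 3 alpha2 and alpha3 by 1.28 within the phasic set.

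The day 3 difference rested on the short Gabra2 form. With Gabra2 taken at its long, coding form, an alternative chosen after the data were seen, tonic minus phasic was 0.09 at day 3. At day 14 it was -0.12 with the length trend subtracted and -0.23 without Gabra5. By level, the tonic subunits were 59.6% of the summed phasic and tonic FPKM in sham and 58.7%, 54.3%, 62.3%, 65.2% and 59.4% on days 1, 3, 7, 14 and 28. Day 3 and day 14 were the extremes, and day 1 and day 28 were within 1 percentage point of sham.

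**Figure D4:**
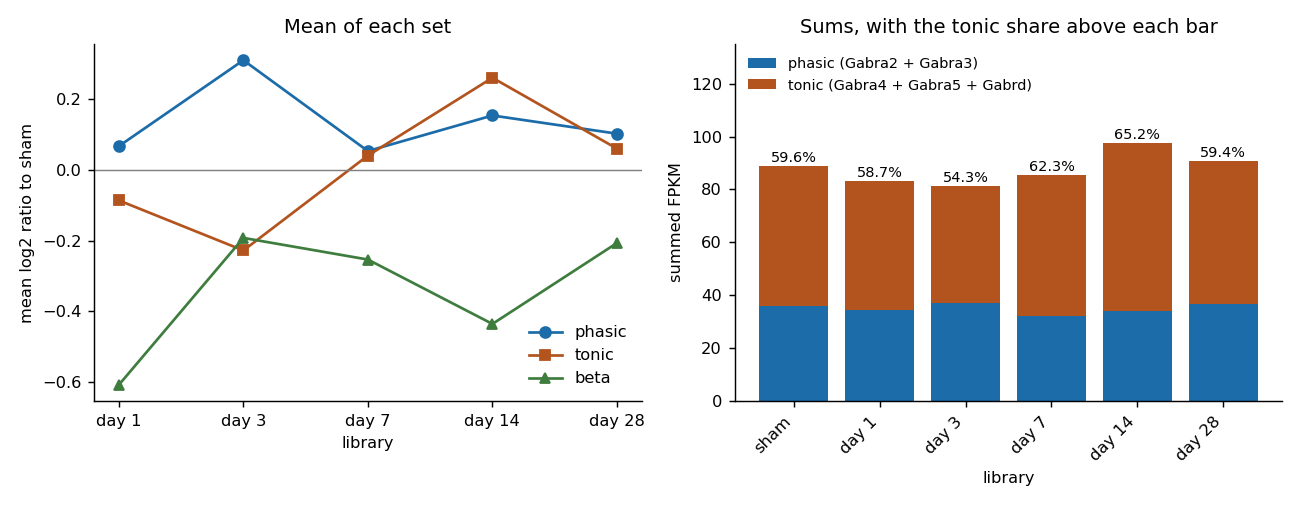
Left, mean log2 ratio to sham (y axis) of the phasic, tonic and beta sets at 5 days (x axis), and right, summed FPKM (y axis) of the phasic and tonic subunits in the 6 libraries, with the tonic share above each bar. The tonic share was lowest at day 3 (54.3%) and highest at day 14 (65.2%).

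The order of the members by level, on the FPKM scale that is set per transcript length, was Gabra3, Gabrb2, Gabrd, Gabra4, Gabra5, Gabrb1 and Gabra2 in sham. The same order held at day 28 except that Gabra2 and Gabrb1 changed places. At day 14 the order was Gabrd, Gabra5, Gabrb2, Gabra3, Gabra4, Gabra2 and Gabrb1. Neighbours in the order were often close, such as Gabra3 and Gabrb2 in sham (1.08 times apart), Gabrb2 and Gabra3 at day 7 (1.01 times) and Gabrb2 and Gabra3 at day 14 (1.01 times). With 1 library per group it is not known which neighbours differ beyond their spread. The widest gap in sham was between Gabra4 and Gabra5 (1.63 times). The summed level of the 7 genes was 126 FPKM in sham and 107, 112, 116, 126 and 124 on days 1, 3, 7, 14 and 28.

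Other GABA-A subunit genes were looked up beside the members. Gabrg1, encoding gamma1, was at 4.21 FPKM in sham and 4.17 to 5.73 after stroke. Gabrg3, encoding gamma3, was past the fold mark at day 14. It was at 2.84 FPKM in sham and 1.46, 1.71, 2.36, 0.423 and 2.18 on days 1, 3, 7, 14 and 28. Its log2 ratio at day 14 was -2.49, and -2.12 with the length trend subtracted (longest transcript 9767 bases). Gabre was listed at 0.755 FPKM at day 1 and 0.431 at day 14, Gabrq at 1.17 at day 1 and 0.863 at day 7, and Gabrr2 at 0.682 at day 1 and 0.460 at day 28, with no listing elsewhere. Gabra6, Gabrp, Gabrr1 and Gabrr3 had no value in any library. The tables seldom list genes with 1 annotated transcript (24.6% of 4477 protein-coding genes, against 72.1% of 17474 with 2 or more), so a missing value does not show that a gene was silent.

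The chloride gradient decides whether an open GABA-A channel inhibits. The gene of the main neuronal chloride extruder was below sham from day 1 to day 14. Of 8 genes of the chloride gradient, all were compared at each day, and 1, 1, 1, 2 and 0 were lower by the fold mark on days 1, 3, 7, 14 and 28, with 0 higher throughout and medians between -0.18 and -0.09. Among all genes listed in both libraries, 3.53%, 2.10%, 1.77%, 4.66% and 2.11% were lower and 4.13%, 7.15%, 7.08%, 7.69% and 3.00% were higher by the fold mark on those days, and with 8 genes the counts are not set apart from these shares. Slc12a5, which encodes the chloride extruder KCC2, was at 70.0 FPKM in sham and 33.0, 31.2, 30.5, 26.5 and 83.0 on days 1, 3, 7, 14 and 28. Its log2 ratio was -1.08, -1.16, -1.20, -1.40 and 0.25 on days 1, 3, 7, 14 and 28. The 4 libraries from day 1 to day 14 were below both sham and day 28. The start that carried most of its signal gave 51.3 FPKM in sham, 20.6 to 28.7 from day 1 to day 14, and 46.2 at day 28. A start near the end of the gene was at 12.8 FPKM in sham and 28.7 at day 28, so the excess over sham at day 28 was in that start. With the length trend subtracted, the ratio was -0.94 at day 1, short of the fold mark, and -1.12 at day 14. Slc12a2, the importer NKCC1 that opposes KCC2, was at 13.4 FPKM in sham and 11.0 to 13.9 after stroke. Wnk1, a kinase that regulates both transporters, was at 21.6 FPKM in sham and 10.7 at day 14 (log2 ratio -1.004, and -0.64 with the length trend subtracted).

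Genes that anchor or traffic GABA-A receptors were found on both sides of sham. Of 22 genes on this list, 21 had a value and 20 or 21 were compared, of which 1, 1, 0, 3 and 2 were higher and 1, 0, 1, 2 and 1 were lower by the fold mark on days 1, 3, 7, 14 and 28, with medians between -0.19 and 0.04. With about 20 genes, these counts are not set apart from the shares of all genes given above. Lhfpl4, which joins receptors to neuroligin-2 at synapses, was at 11.9 FPKM in sham and 5.72, 9.42, 2.30, 1.13 and 8.27 on days 1, 3, 7, 14 and 28. The log2 ratio was -1.05, -2.33 and -3.29 on days 1, 7 and 14, and at day 1 it was -0.99 with the length trend subtracted. Zdhhc3, a palmitoyltransferase that acts on receptor subunits, was at 3.69 FPKM in sham and 8.30, 8.08, 5.89, 16.3 and 8.71 on days 1, 3, 7, 14 and 28. It passed the fold mark upwards at day 1, day 3, day 14 and day 28, with 2.11 at day 14. Gphn, the scaffold gephyrin, was at 6.42 FPKM in sham, 9.76 at day 3 and 2.95 at day 28 (log2 ratio -1.10), a difference of its transcript ends only, since its summed starts were 2.78 FPKM in sham and 2.75 at day 28. Gabarapl2, a relative of the receptor-associated protein GABARAP, rose from 31.3 FPKM in sham to 76.9 at day 14 (log2 ratio 1.30, and 0.97, short of the fold mark, with the length trend subtracted). Dlc1, which encodes a GTPase-activating protein and not the dynein light chain that binds gephyrin, was at 6.32 FPKM in sham, 5.20 to 5.67 at the other days and 0.0229 at day 14, when none of its starts was listed.

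**Figure D5:**
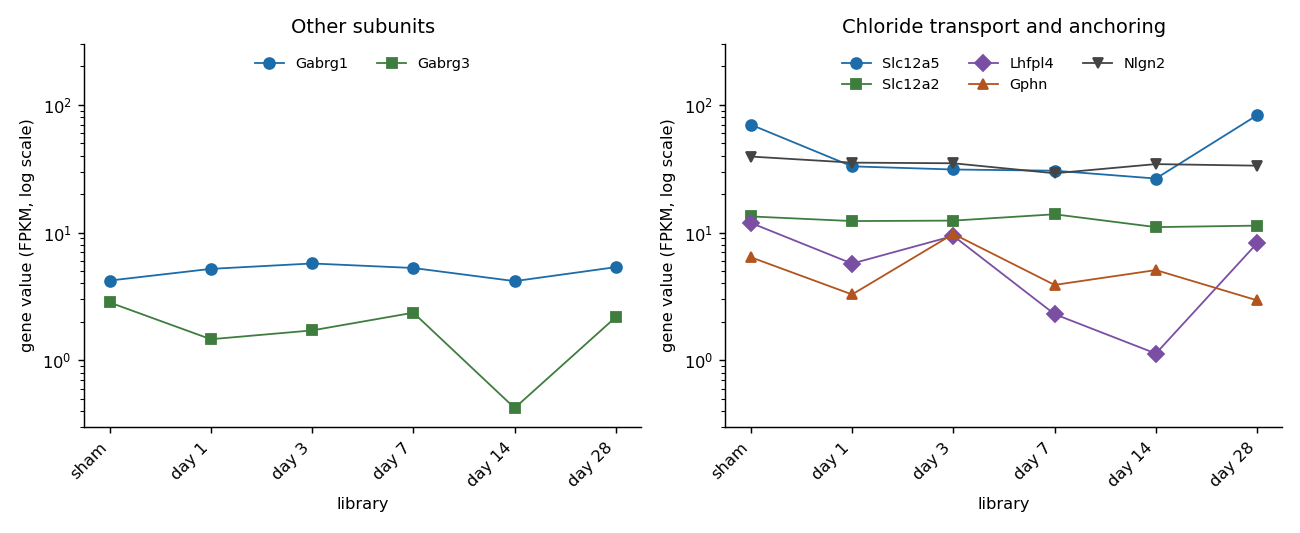
Gene value (FPKM on a log axis, y) in the 6 libraries (x axis) of 2 other GABA-A subunits (left) and of 5 genes of chloride transport and receptor anchoring (right), 1 point per pooled library. Slc12a5 was at 26.5 to 33.0 FPKM from day 1 to day 14 against 70.0 in sham and 83.0 at day 28, and Gabrg3 and Lhfpl4 were lowest at day 14.

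Of the genes that make, load and remove GABA, all 12 were compared at each day, with 0 higher and 0 lower by the fold mark at all 5 days, which with 12 genes is not set apart from the shares of all genes given above, and with medians between -0.09 and 0.17. Gad1, a GABA-synthesising enzyme, was at 70.3 FPKM in sham and 60.6 to 86.5 after stroke. Slc32a1, the vesicular GABA transporter, was at 29.6 FPKM in sham and 27.5 to 42.4 after stroke. The highest ratio of the list was 0.80, of the GABA transporter Slc6a13 at day 14, and the lowest was -0.56, of the same gene at day 1.

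The cell type markers moved over the same days. Of 12 pan-neuronal markers, 11 were compared, with a median log2 ratio of -0.07, -0.42, -0.31, 0.03 and -0.21 on days 1, 3, 7, 14 and 28, and 1 gene below the fold mark at day 3 (Uchl1) and 1 at day 14 (Map2, -2.25). Relative to this median, an alternative chosen after the data were seen, Gabra3 was at -0.11, 0.09, -0.07, -0.41 and 0.19 and Gabra4 at -0.20, -0.09, -0.12, -0.47 and 0.12 on days 1, 3, 7, 14 and 28. Both were furthest from the neuronal median at day 14. The markers' own log2 ratios ranged from -2.25 to 0.41 at day 14, and those of both subunits lay within that range. The median was not length-corrected. Relative to the median, Gabra2 was at 1.37 at day 3 and Gabra5 at 1.00 at day 7. Gabrb2 was at -0.56, 0.09, 0.04, -0.29 and 0.10 on days 1, 3, 7, 14 and 28, so its place below sham at days 3, 7 and 28 did not hold against the neuronal median.

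Interneuron markers (9 of 10 with a value) had medians between -0.33 and 0.29, with Calb2 above the fold mark at day 1 and day 14 and Reln below it at day 1. Of 10 microglia and macrophage markers, 8 were listed in both libraries at each day with at least 1 FPKM in either, and 0, 7, 6, 6 and 0 of these were higher by the fold mark on days 1, 3, 7, 14 and 28, while 1 was lower at day 1. Among all genes listed in both libraries, 4.13%, 7.15%, 7.08%, 7.69% and 3.00% were higher on those days. At day 1, 3.53% were lower. Cx3cr1 was not listed in sham and was at 1.84 FPKM at day 14. The markers' summed level was 166 FPKM in sham and 213, 519, 796, 645 and 199 on days 1, 3, 7, 14 and 28. Among 8 astrocyte markers, Gfap alone passed the fold mark, from 85.8 FPKM in sham to 698 at day 3. With 8 to 11 genes per list, the pan-neuronal, interneuron and astrocyte counts are not set apart from the shares of all genes. The part of these markers in the values of Gabra3, Gabra4, Gabrb1 and Gabrb2 was not tested. Hypothalamic markers, looked up as a check for tissue outside the cortex, summed to 9.99 FPKM in sham and 70.0, 18.8, 47.9, 37.7 and 14.7 on days 1, 3, 7, 14 and 28. The sham sum was Cartpt (7.83 FPKM) and Trh (2.16 FPKM) alone. Oxt, Avp, Pmch and Pomc were not listed in sham. Avp was at 18.9, 4.24, 18.1, 11.7 and 3.01 FPKM on days 1, 3, 7, 14 and 28, and Pmch was at 26.2 at day 1. The part of the hypothalamic markers in the subunit values was not tested either.

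The genes whose pattern was most like that of each member were found by the root mean square difference of the 5 log2 ratios to sham, over 10168 other genes with at least 1 FPKM in all 6 libraries. The nearest to Gabra2 were Ppp2r1b (0.0692), Itih2 (0.0812) and Tbc1d8b (0.104), and the nearest to Gabra5 were 1600002K03Rik (0.0910), Gmds (0.105) and Nubp1 (0.118). For the members that were highest in sham, they were Nbr1 (0.0461), Rnf150 and Nckap1 for Gabra3, Tyro3 (0.0550), Lonrf2 and App for Gabra4, Btbd11 (0.0550), Zfp866 and Sorl1 for Gabrb1, and Hnrnpdl (0.0360), Lyrm9 and Nalcn for Gabrb2. For Gabrd they were Mypop (0.0486), Cux1 and Timm22. Among the members themselves, Gabra3 and Gabra4 were the most alike (0.101), although alpha3 is counted as phasic and alpha4 as tonic. Gabra3 was the 24th nearest gene to Gabra4. All of these comparisons share the sham library and describe the 6 libraries only.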

How the data were processed

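RNA from the ipsilateral cortex was sequenced in 1 library for each of 6 groups, as paired-end reads, with 3 mice pooled per library. The submitters' processing notes name Trimmomatic 0.30, HISAT2 2.0.1, HTSeq 0.6.1 and the build mm10. The authors deposited, for each library, FPKM values of transcript start, transcript end and splicing events rather than of genes, and events at 0 were not listed. The assembler and the event caller are not given in the sources used here. The files give no read counts, so the depth behind each value is unknown and no counting interval was given.

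A gene value was the largest of the summed start FPKM, the summed end FPKM and any single event in a library. Log2 ratios to sham were taken after adding 0.1 FPKM, for genes with at least 1 FPKM in 1 of the 2 libraries, with a fold mark of 1. The length correction subtracted the median log2 ratio in 20 bins of transcript length. Gene models were those of GENCODE M21 (GRCm38), and promoter windows those of RefSeq (GRCm38.p6). A RefSeq window was matched for 6 of the 7 members, Gabrd being the exception.

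Groups were taken from the labels. With 1 library per group, no test was run. The members and gene lists were chosen with earlier results of these data known. Named genes were all 7 members, their 3 nearest genes by pattern, the other receptor subunits (some are not reported here), and genes of the other lists past the fold mark with at least 5 FPKM in sham or that day, or otherwise the highest and lowest ratio of a list. Genes in list counts were listed in both libraries, with at least 1 FPKM in 1 of them. Cell type markers are given mostly as counts. Those named outside this rule were chosen after their values were seen. Alternatives were other pseudocounts, filters, event sums, scalings, fold marks and set definitions. The steps were tested on simulated data and run in Python 3.11.15 with matplotlib 3.10.9, scipy 1.17.1, pandas 2.3.3 and numpy 2.4.6.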

Additional observations from a re-analysis of the deposited data

Results flagged for a closer look

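Gabrd, encoding the delta subunit, was on opposite sides of sham at different days, above it at day 14 (log2 ratio 0.29) and furthest below it at day 3 (log2 ratio -0.28). Each day was 1 pooled library, and the difference between days was not tested.

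A Gabra5 transcript start outside the annotated span of the gene, at position 57590452 of chromosome 7, was listed at 2.62 FPKM at day 28 and was not listed in sham or in the other 4 libraries. It was not part of the comparison of the upstream and downstream starts.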

How the results depend on the processing

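With 1 library per group no difference has an error, depth per library is not known, and calls rest on the size of a ratio alone. No paired analysis was possible because each group had 1 library. Of 420 member ratios under alternatives, 404 kept their sign and their side of the fold mark, 12 changed sign and 4 passed the fold mark. Ratios that kept both could still change in size, such as Gabrb1 at day 14, from -0.60 to -0.24 with the length trend subtracted. With summed ends, Gabra3 at day 28 was at 0.01. The members past the fold mark (0 at each day) became 2 at day 14 with summed starts (Gabra5 1.13, Gabrb2 -7.75, whose main start was not listed), and 2, 2, 1 and 3 on days 1, 3, 7 and 14 with a mark of 0.5. Tonic minus phasic became 0.05 at day 7 with summed starts, -0.12 at day 14 with the length trend subtracted, 0.18, 0.14 and 0.11 on days 1, 7 and 28 with the beta subunits added to the phasic ones, -0.23 at day 14 without Gabra5, and 0.09 at day 3 with Gabra2 at its long exon form, the last chosen after the data were seen. Its sign therefore depended on these choices. Relative to the pan-neuronal median, also chosen after the data were seen, subunits below sham were above 0 at day 3 (Gabra3 0.09, Gabrb1 0.36, Gabrb2 0.09, Gabrd 0.14), day 7 (Gabrb1 0.08, Gabrb2 0.04, Gabrd 0.17) and day 28 (Gabra3 0.19, Gabra4 0.12, Gabrb2 0.10, Gabrd 0.11).

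All genes past the fold mark numbered 1130, 1334, 1286, 1915 and 760 on days 1, 3, 7, 14 and 28. They numbered 2449, 2646, 2660, 3238 and 1973 with no filter on low values, 502, 625, 595, 829 and 306 with at least 1 FPKM in both libraries, 397, 443, 491, 813 and 258 with a mark of 2, and 3256, 3288, 3093, 4603 and 2296 with a mark of 0.5. With a pseudocount of 1 FPKM they numbered 674, 796, 806 and 424 on days 1, 3, 7 and 28. These alternatives change how many low or small differences are counted. Scaling the libraries to the same sum moved the median of all genes at day 14 from 0.10 to -0.09 and the share of higher among called genes from 56.4% to 42.9%, and the Gabrd ratio at day 14 from 0.29 to 0.10.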

Other observations

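The excitatory counterparts of these channels, the ionotropic glutamate receptor subunits, had 13 of 16 genes with a value. All 13 were listed in both libraries on days 1, 3, 7 and 28, with 1 higher by the fold mark on each of these days, and 12 at day 14, of which 2 were lower. Among all genes listed in both libraries, 4.13%, 7.15%, 7.08% and 3.00% were higher on days 1, 3, 7 and 28. At day 14, 4.66% were lower. With 12 or 13 genes, the counts are not set apart from these shares. Grin2a, an NMDA receptor subunit of mature synapses, was at 3.28 FPKM in sham and 7.15, 9.97, 10.8 and 12.3 on days 1, 3, 7 and 28, and was not listed at day 14. Gria2, the AMPA receptor subunit that limits calcium entry, was at 119 FPKM in sham and 69.5, 78.5, 87.7, 34.7 and 109 on days 1, 3, 7, 14 and 28, with a log2 ratio of -1.77 at day 14. Gria4 was at 20.9 FPKM in sham and 8.36 at day 14. Among the genes of the metabotropic GABA-B receptor, Kctd16, an auxiliary subunit, was at 12.9 FPKM in sham and 2.39 at day 1 (log2 ratio -2.38). It was the only 1 of the 3 genes listed in both libraries that passed the fold mark at any day. With 3 genes, this count is not set apart from the 3.53% of all genes that were lower at day 1. Kctd12b was not listed in sham and was at 0.851, 1.15 and 0.936 FPKM on days 3, 7 and 28.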
